A study of Mus musculus with 4 samples.

Results

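The genes described here make cholesterol, sense sterols or move sterols, and they were read on arrays of dorsal cortex from mice at E18.5, close to birth. Of 28 named genes, 27 were found by their single symbol in the array's platform annotation, out of 19938 genes in all. Where a gene had several array features, the feature with the highest mean over the 4 arrays was taken. All 27 lay above the filter on dim genes and were among the 13956 genes tested, and Acat2, an acetoacetyl-CoA thiolase, was not matched and is not analysed here. The control group is 2 arrays of embryos labelled Mek1fl/wt, Mek2-/-, a genotype without Mek2 and with a wild-type copy of Mek1. The mutant group is 2 arrays labelled Mek1fl/fl, Mek2-/-, NestinCre, in which Cre recombinase expressed in neural progenitors deletes Mek1 in the neurons and glia that descend from them. By these labels both groups lack Mek2, whereas the design text calls the controls wild type, and the conflict is not settled here. The labels name NestinCre in mutants only, so the transgene and the loss of Mek1 cannot be told apart. Nothing in the labels gives a litter or batch. The p-values rest on the spread between arrays within a group, pooled in part over all genes tested.

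Cholesterol does not cross from blood into brain, so neural cells make their own, and synthesis rises while membranes, synapses and myelin are built. The pathway runs from acetyl-CoA through mevalonate to farnesyl diphosphate, then through squalene and lanosterol to cholesterol. Its genes are switched together by SREBP2, the product of Srebf2, which SCAP escorts out of the endoplasmic reticulum when sterol falls and which INSIG proteins hold back when sterol is plentiful. Astrocytes supply neurons with cholesterol on ApoE particles loaded by the ABCA1 and ABCG1 pumps, whose genes are targets of the LXR receptors. MEK1 and MEK2 are the kinases that activate ERK1 and ERK2. The comparison asks how transcripts of this pathway differ between these groups, which by the labels differ in Mek1 and NestinCre.

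The values are log2 expression made by the authors with RMA, a method that brings all arrays to a similar distribution. Map2k1, which encodes MEK1, stood at 8.76 and 8.84 in controls and at 8.50 and 8.73 in mutants (adjusted p = 0.469), and Map2k2 was measured at 8.47 to 8.64 on all arrays (adjusted p = 0.657). No source used here states whether their probes reach the deleted exons, so neither gene checks the labels, and the Map2k2 signal leaves a lack of Mek2 unshown. Markers of cortical neurons had a mean of 11.004 to 11.09 on each array. Across all genes tested, limma called 141 lower and 2 higher in mutants at an adjusted p under 0.05. That total of 143 dropped to 9 when either control was left out, and was 262 when mutant 1 and 881 when mutant 2 was left out.

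Transcripts of cholesterol synthesis and sterol control differed little between mutant and control cortex. None of the 27 genes passed the test in either direction (limma, adjusted p from 0.0548 to 0.980), where 1.01% of all genes tested were called lower and 0.0143% higher. At an unadjusted p under 0.05, 4 members were higher (Hsd17b7, Mvd, Fdft1 and Cyp51) and 2 were lower (Abca1 and Lbr). The background for these counts was 5.73% of all genes higher and 7.69% lower. Differences ran from -0.45 for Abca1 to 0.39 for Hsd17b7 (mutant minus control, log2), and the median was 0.06 against 0.01 over all genes tested. The median 95% interval of a member reached 0.15 to each side of its difference. That width rests on 2 arrays a group and on a variance that limma moderates over all genes tested. The fit had 2 residual and 3.31 prior degrees of freedom.

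The mean was higher in mutants for 21 of the 27 members, against 52.3% of all genes, and for 17 of the 19 enzymes of synthesis. The 21 became 23 with arrays centred on their medians and 20 after further quantile normalization, and 17 without control 1 or without mutant 2. For the 19 enzymes, the 17 became 14 without control 1 and 14 without mutant 2. Mutant values lay above both controls for 11 members and below both for 4, where 22.8% and 21.4% of all genes did so. The median enzyme of synthesis lay at 0.07 above the control mean on mutant 1 and at 0.12 on mutant 2, while the controls lay at -0.02 and 0.02.

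**Figure D1:**
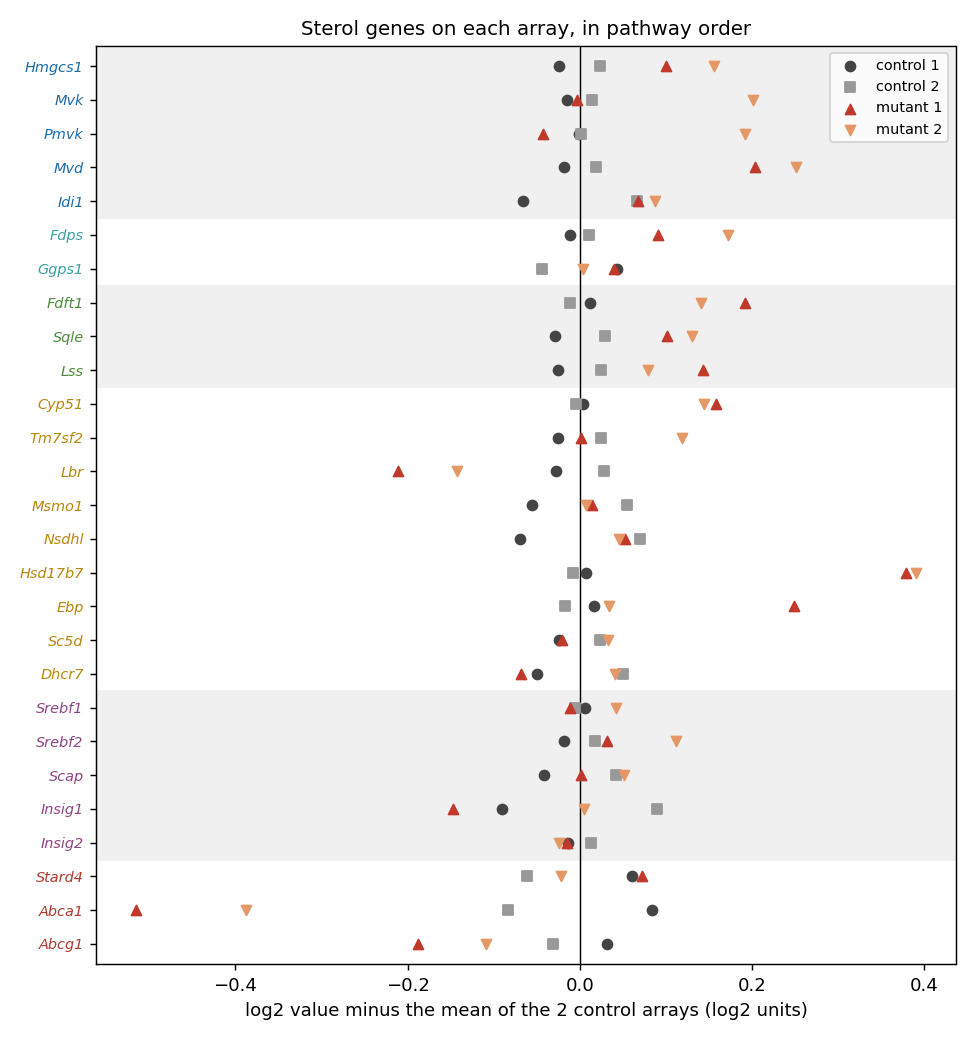
Log2 value of 27 sterol genes on each array minus the mean of the 2 control arrays (x axis, log2 units), in pathway order from Hmgcs1 at the top to Abcg1 (y axis). Circles and squares are the controls, triangles the mutants; Hsd17b7 and Mvd lie right of both controls on both mutant arrays, and Abca1, Lbr and Abcg1 lie left.

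The windows before the gene starts show what these genes have in common in sequence. The 250 bases before the start were taken from RefSeq promoter windows (GRCm38.p6), which matched 22 of the 27 members in 30 windows. CCAAT, the letters bound by NF-Y, a usual partner of SREBPs, was searched on both strands and found in 20 of the 22 genes, against 37.5% of all genes with a window and 39.5% of protein-coding ones. The 2 genes without it were Abca1 and Scap. TCACNCCAC, a form of the sterol regulatory element, was found in Hmgcs1 alone (1.2% of protein-coding genes), and the looser TCACNCNAC, which contains it, also in Nsdhl (2.77%). The letters CACGTG, an E-box, stood in 6 of the 22 genes (7.61%). A strict form of the LXR element, AGGTCA repeated with 4 bases between, was found in none of the 22, Abca1 among them. It was in 0.0148% of all genes and 0% of protein-coding ones. Looser forms were not searched, so the miss says only that these exact letters are not in the windows. A match is a description of letters, and none of it is a measured binding site. The windows printed are those of the 3 members with the smallest p, Hsd17b7, Abca1 and Mvd, and that of Hmgcs1, chosen after its sequence was seen. Each reads 5′ to 3′ along the gene, and capitals mark the CCAAT box on either strand, the E-box and the sterol element.
Hsd17b7, minus strand, chr1:169969206-169969455: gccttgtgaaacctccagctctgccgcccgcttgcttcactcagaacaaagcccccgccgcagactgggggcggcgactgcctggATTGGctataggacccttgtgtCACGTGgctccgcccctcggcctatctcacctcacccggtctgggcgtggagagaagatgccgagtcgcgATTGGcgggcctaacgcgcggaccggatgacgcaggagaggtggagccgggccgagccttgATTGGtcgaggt
Abca1, minus strand, chr4:53159896-53160145: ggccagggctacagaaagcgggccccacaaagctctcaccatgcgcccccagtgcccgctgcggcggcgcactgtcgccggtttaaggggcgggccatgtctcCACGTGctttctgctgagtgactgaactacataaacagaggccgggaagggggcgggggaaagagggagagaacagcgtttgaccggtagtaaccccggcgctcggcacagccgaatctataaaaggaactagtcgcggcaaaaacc
Mvd, minus strand, chr8:122443423-122443672: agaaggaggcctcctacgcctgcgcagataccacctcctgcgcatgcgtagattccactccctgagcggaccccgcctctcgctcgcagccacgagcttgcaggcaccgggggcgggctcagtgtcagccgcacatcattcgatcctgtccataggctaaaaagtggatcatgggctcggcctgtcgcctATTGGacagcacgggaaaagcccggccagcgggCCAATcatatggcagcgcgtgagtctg
Hmgcs1, plus strand, chr13:119690101-119690350: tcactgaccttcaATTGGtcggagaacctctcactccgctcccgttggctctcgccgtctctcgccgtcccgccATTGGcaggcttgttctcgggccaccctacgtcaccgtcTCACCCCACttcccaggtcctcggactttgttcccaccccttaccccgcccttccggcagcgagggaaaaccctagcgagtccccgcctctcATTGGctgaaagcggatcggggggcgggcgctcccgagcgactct
Hsd17b7 holds CCAAT letters at 3 places and an E-box, Mvd holds CCAAT letters at 2 places, and Hmgcs1 holds them at 3 places beside its sterol element, 137 to 129 bases before the start. Abca1 holds an E-box 147 to 142 bases before its start and no other letters in capitals.

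The mevalonate steps turn acetyl units into the isoprene building block, and all 5 genes measured had a higher mutant mean (median difference 0.10), none past the test. Hmgcs1, the cytosolic HMG-CoA synthase and the earliest step measured here, stood at 12.43 and 12.48 in controls and at 12.56 and 12.61 in mutants. Both mutants lay above both controls, but the difference of 0.13 ± 0.06 (SE) had an interval from -0.02 to 0.28 (adjusted p = 0.432). Mvd, the decarboxylase that makes isopentenyl diphosphate, stood at 9.43 and 9.47 in controls and at 9.65 and 9.70 in mutants. The groups were well apart for this gene, 0.23 ± 0.06 (SE), or 1.17-fold, and the interval ran from 0.08 to 0.37, yet over all genes the adjusted p was 0.196. Its difference lay between 0.20 and 0.25 with any 1 array left out.

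The kinases between them, Mvk and Pmvk, were set apart by mutant 2. Mevalonate kinase Mvk stood at 9.01 and 9.04 in controls and at 9.02 and 9.23 in mutants, and phosphomevalonate kinase Pmvk at 9.09 in both controls and at 9.05 and 9.28 in mutants. In each case mutant 1 sat with or below the controls and mutant 2 sat higher. Without mutant 2 their differences were -0.00 and -0.04. Idi1, the isomerase that readies isopentenyl diphosphate for chain building, stood at 10.32 and 10.46 in controls and at 10.46 and 10.48 in mutants. Control 1 was the low array here, and control 2 nearly equalled mutant 1. A further Idi1 feature, which the annotation gives the same transcript accessions, differed by 0.05 against 0.08 for the brighter feature, and signal from a near-identical copy could not be told apart.

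Farnesyl diphosphate is the branch point from which sterols, prenyl groups of proteins, dolichol and ubiquinone are made. Fdps, its synthase, stood at 10.71 and 10.73 in controls and at 10.81 and 10.89 in mutants, a difference of 0.13 ± 0.06 (SE; adjusted p = 0.430). The mutants were the higher arrays without overlap. Ggps1, which extends the chain to geranylgeranyl diphosphate for protein prenylation, was at 10.34 to 10.42 on all arrays, with control 1 the highest and control 2 the lowest. Its difference of 0.02 had an interval from -0.13 to 0.18.

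The steps from farnesyl diphosphate to lanosterol, the first committed to sterols, had mutant values above both controls for 3 of 3 genes, none past the test. Such a separation was seen for 22.8% of all genes tested. Fdft1, squalene synthase, stood at 11.98 and 11.96 in controls and at 12.16 and 12.11 in mutants. The controls had an SD of 0.02 (n = 2) and the mutants lay higher, by 0.17 ± 0.06 (SE; interval 0.02 to 0.31, adjusted p = 0.308). The dimmer Fdft1 feature pointed the same way, from 11.62 and 11.59 to 11.70 and 11.74, a difference of 0.11. Sqle, the squalene epoxidase that is a control point of flux, stood at 10.91 and 10.97 in controls and at 11.04 and 11.07 in mutants. Lss, which cyclises the epoxide to lanosterol, stood at 9.62 and 9.67 in controls and at 9.79 and 9.73 in mutants. Their differences were 0.12 and 0.11, and both intervals included 0 (adjusted p = 0.467 and 0.4998).

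The enzymes that trim lanosterol to cholesterol gave mixed values. Of 9 measured, 7 had a higher and 2 a lower mutant mean (median 0.05), and none passed the test. Hsd17b7, the reductase of the sterol ketone left by demethylation, had the smallest p of all members. It stood at 9.44 and 9.42 in controls and at 9.81 and 9.82 in mutants. The arrays of a group nearly coincided and the groups were far apart by comparison, at 9.43 ± 0.01 and 9.81 ± 0.01 (SD, n = 2 each). The difference of 0.39 ± 0.05 (SE), or 1.31-fold, had an interval from 0.25 to 0.52 and an adjusted p of 0.0548, just outside the threshold. It was called without mutant 2 (adjusted p = 0.0277) and not without control 1 (0.371), without control 2 (0.380) or without mutant 1 (0.0528), while its size stayed between 0.38 and 0.39.

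Its partners in the same demethylation complex stayed close to the controls. Msmo1, the methylsterol oxidase, stood at 11.83 and 11.94 in controls and at 11.90 and 11.89 in mutants. Nsdhl, the decarboxylating dehydrogenase, stood at 10.09 and 10.23 in controls and at 10.22 and 10.21 in mutants. For both genes the mutants fell between the controls, and their differences of 0.01 and 0.05 had intervals that ended at 0.17 and 0.22, below the 0.25 where that of Hsd17b7 began. The differences between these genes were not tested. Cyp51, the lanosterol demethylase further upstream, stood at 10.29 and 10.28 in controls and at 10.44 and 10.43 in mutants. Its mutants lay above the controls by 0.15 ± 0.05 (SE; interval 0.02 to 0.29, adjusted p = 0.323).

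Lbr and Tm7sf2 encode sterol reductases of the same step, and their values lay on opposite sides of 0. Lbr, also the lamin B receptor of the inner nuclear membrane, stood at 9.41 and 9.47 in controls and at 9.23 and 9.29 in mutants, the only enzyme of synthesis whose mutants lay below both controls. The difference was -0.18 ± 0.06 (SE; interval -0.33 to -0.03, adjusted p = 0.310). Tm7sf2 stood at 9.66 and 9.71 in controls and at 9.68 and 9.80 in mutants, an overlap, with a difference of 0.06 (adjusted p = 0.772). Ebp, the sterol isomerase, stood at 7.68 and 7.64 in controls and at 7.91 and 7.69 in mutants, both above the controls, mutant 2 by little and mutant 1 by more. Its difference was 0.14 with all arrays and 0.03 without mutant 1.

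The desaturase Sc5d and the reductase Dhcr7, which stand at the end of the pathway and next to each other, had overlapping groups. Sc5d stood at 10.34 and 10.38 in controls and at 10.34 and 10.39 in mutants, and Dhcr7, the gene of Smith-Lemli-Opitz syndrome, at 9.65 and 9.75 and at 9.63 and 9.74. Their differences were 0.01 and -0.01 (adjusted p = 0.980 and 0.966). Over all 19 enzymes of synthesis the lowest end of an interval was -0.33, that of Lbr, so a decrease to below 0.796 of the control level lay outside each of these intervals, which are not adjusted for the number of genes.

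**Figure D2:**
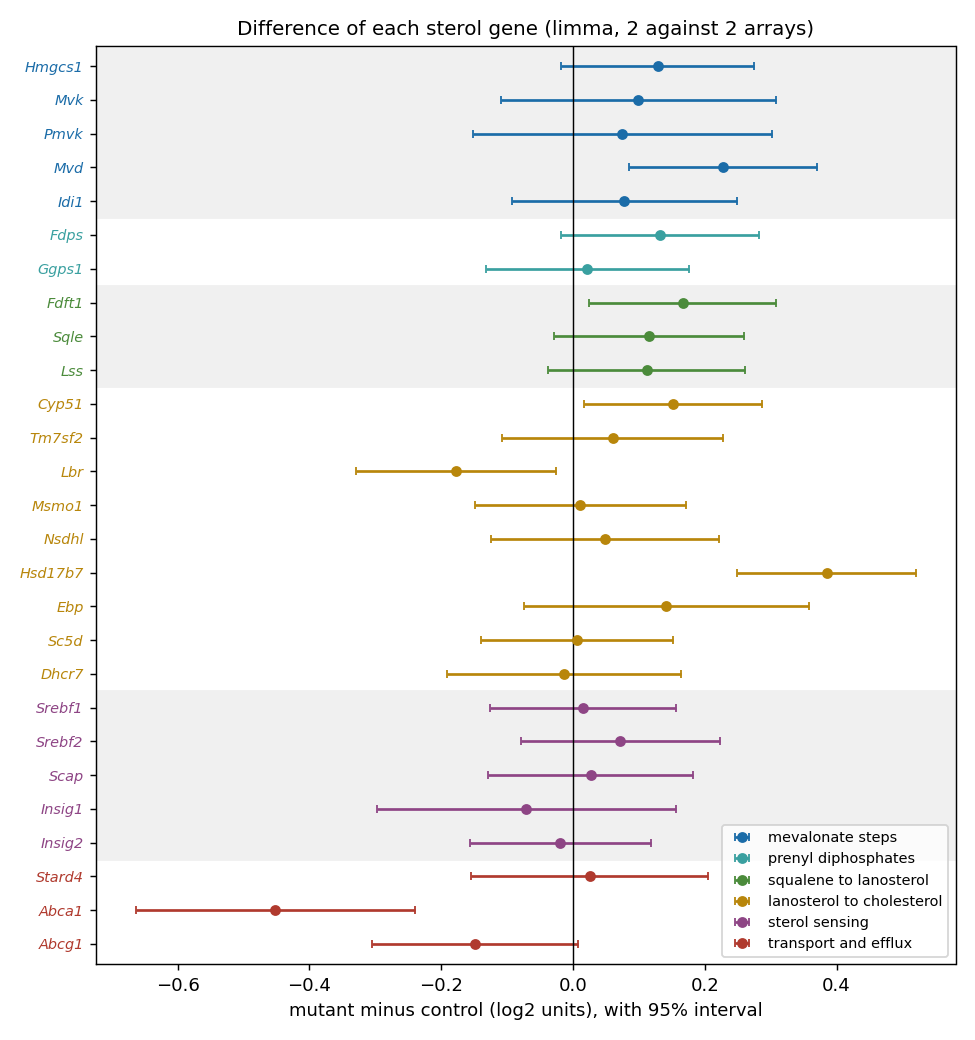
Mutant minus control difference of each of the 27 sterol genes (x axis, log2 units) with its 95% interval from limma, in pathway order (y axis) and coloured by role. The intervals of Hsd17b7, Mvd, Fdft1 and Cyp51 lie above 0, those of Abca1 and Lbr below it, and the other 21 include 0.

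The genes that sense sterol had small differences. None of 5 passed the test (unadjusted p of 0.283 or more in limma), and the median difference was 0.02. Srebf2, which encodes the main regulator of cholesterol synthesis, stood at 10.44 and 10.48 in controls and at 10.49 and 10.57 in mutants. The mutants were barely above the controls, by 0.07 ± 0.06 (SE; adjusted p = 0.678). Srebf1, whose products steer fatty acid synthesis, was at 8.33 to 8.39 on all arrays, and Scap, the escort, at 9.44 to 9.53, and the groups overlapped for both. Their differences were 0.02 and 0.03.

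Insig1 and Insig2 encode the anchors that hold the SCAP complex in the endoplasmic reticulum, and Insig1 is itself an SREBP target. Insig1 stood at 10.62 and 10.80 in controls and at 10.56 and 10.71 in mutants. The arrays of a group differed more than the groups did, and its interval from -0.30 to 0.16 was the widest of the sterol-sensing genes. Insig2 stood at 9.44 and 9.47 in controls and at 9.44 and 9.43 in mutants. Its difference of -0.02 was small beside its error, and it turned to 0.00 with arrays centred on their medians.

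Sterol transport held the largest decrease among the members, in a gene that did not pass the test. Abca1, the pump that loads cholesterol onto apolipoproteins, stood at 8.73 and 8.56 in controls and at 8.13 and 8.26 in mutants. Both mutants lay below both controls. The difference was -0.45 ± 0.08 (SE; interval -0.66 to -0.24, 1.37-fold lower, adjusted p = 0.105). It was called without mutant 2 (adjusted p = 0.0236) and was -0.37 without control 1 (adjusted p = 0.499). Abcg1, the pump that passes sterol to formed particles, stood at 8.22 and 8.15 in controls and at 7.996 and 8.08 in mutants, lower on both mutants, by -0.15 ± 0.06 (SE; adjusted p = 0.397). Stard4, a soluble carrier between membranes, stood at 9.51 and 9.39 in controls and at 9.52 and 9.43 in mutants, and the groups overlapped.

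Other genes of sterol and lipid metabolism were read from listed genes, and 2 of 68 tested were called, both lower, with a median difference of -0.01. The shares over all genes tested were 1.01% called lower and 0.0143% called higher. Thrsp, a lipogenic regulator, stood at 8.11 and 8.19 in controls and at 7.31 and 7.20 in mutants. It fell 1.87-fold (adjusted p = 0.0185), with no overlap between groups. Cyp7b1, an oxysterol hydroxylase, stood at 8.14 and 8.11 in controls and at 7.68 and 7.70 in mutants, and fell 1.35-fold (adjusted p = 0.0427). Without control 1 or without control 2 neither was called (adjusted p = 0.117 and 0.127 for Thrsp, 0.330 and 0.271 for Cyp7b1), and the count of 2 was 6 without mutant 2.

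The fatty acid list of SREBP1 targets had 18 genes tested, Thrsp the only one called, and a median of -0.03. At an unadjusted p under 0.05, 3 were lower and 1 higher, where 7.69% and 5.73% of all genes were. Mutant values lay below both controls for 7 and above both for 4, where 21.4% and 22.8% of all genes did so. The 3 lower genes were Thrsp, Mid1ip1 (-0.32, limma adjusted p = 0.0862) and Scd1 (-0.25, adjusted p = 0.206). Mid1ip1 and Scd1 were named after their values were seen. In the other direction Me1, malic enzyme, named after its value was seen, stood at 9.19 and 9.50 in controls and at 9.82 and 9.74 in mutants, higher by 0.43 ± 0.11 (SE; adjusted p = 0.205, not past the test). The list of LXR, efflux and oxysterol genes had 9, with Cyp7b1 called and a median of 0.02. Of 21 uptake and handling genes none was called (median -0.01), and 2 were higher and 2 lower at an unadjusted p under 0.05. The smallest p in that list belonged to Apoe, the lipoprotein that carries glial cholesterol, which stood at 10.53 and 10.62 in controls and at 9.83 and 10.09 in mutants. Its values were lower on both mutants (-0.62 ± 0.10 SE, adjusted p = 0.0746), as were those of Gramd1c, a carrier from the plasma membrane (-0.46, adjusted p = 0.217). The 2 higher genes, named after their values were seen, were Osbpl1a, an oxysterol-binding protein relative (0.27, adjusted p = 0.218), and Mylip, a ubiquitin ligase for lipoprotein receptors (0.21, adjusted p = 0.226). None of 4 other sterol enzymes was called and none had an unadjusted p under 0.05 (Acat1 0.03, Cyb5r3 0.03). The same held for 5 SREBP processing genes (Mbtps1 -0.06, Fbxw7 0.07). Of 12 genes on other branches from mevalonate none was called and 1 was higher at an unadjusted p under 0.05. This was Nus1, a subunit of the dolichol-making enzyme (0.23, adjusted p = 0.218), and Coq2 of ubiquinone synthesis differed by -0.17 (adjusted p = 0.397).

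Part of the markers of glia and of dividing cells fell in mutants, that is, were called lower, while no sterol enzyme was called. More of them were lower without being called. Mutant values lay below both controls for 13 of 14 astrocyte and 6 of 7 precursor markers. They did so for 12 of 12 radial glia and 11 of 11 cell cycle markers, against 21.4% of all genes. In none of these lists did a marker lie above both controls. In the limma fit, where 1.01% of all genes were called lower, 7 of 14 astrocyte markers fell (median -0.92). The mean log2 value of the astrocyte markers was 9.56 and 9.61 in controls against 8.46 and 8.75 in mutants. Of 7 markers of oligodendrocyte precursors 3 fell (median -0.94, means 7.64 and 7.68 against 6.49 and 6.48). Of 12 radial glia markers 4 fell (median -0.44, means 9.79 and 9.82 against 8.99 and 9.16). Slc1a3 and Fabp7, which fell, are in both the astrocyte and the radial glia lists, so the counts of these lists are not separate. Of 11 cell cycle markers 6 fell (median -0.68, means 8.84 and 8.78 against 8.07 and 8.15). Of 14 neuron markers none was called, and the median was 0.09. At an unadjusted p under 0.05, 1 was higher and 0 lower, against 5.73% and 7.69% of all genes. The enzymes of synthesis had a median of 0.10. Without mutant 2 the counts that fell were 13, 4, 10 and 8 in the order given, without control 1 they were 5, 2, 2 and 0, and without control 2 they were 5, 1, 2 and 0. They were 6, 1, 3 and 0 without the filter on dim genes, and 0 in each list when every feature was tested. With embryo sex, inferred from the arrays, as a covariate they were 6, 1, 3 and 2. Gfap of the astrocyte list and Cspg4 of the precursor list had mutant means that differed from the controls by 0.04 and 0.01. In bulk tissue fewer cells of a type and less RNA per cell cannot be told apart, and the part of these markers in the values of Abca1, Abcg1, Apoe and the synthesis enzymes was not tested.

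Of the other cell types, 1 of 6 microglia markers, Fcrls, fell (median -0.26), and none did without control 1 or without control 2, against 3 without mutant 2. No marker was called of the 6 endothelial (median -0.01), 6 mural (0.11), 4 meningeal (0.05), 2 choroid plexus (-0.60) and 2 blood cell markers (-0.16). The choroid plexus median depended on which controls were kept, and was 0.02 without control 2 and -1.22 without control 1. At an unadjusted p under 0.05, 4 microglia markers were lower, 1 mural marker was higher and 1 blood cell marker lower. Among all genes tested, 7.69% were lower and 5.73% higher at that level. Mutant values lay below both controls for 5 of the 6 microglia markers and above both for 0, against 21.4% and 22.8% of all genes.

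**Figure D3:**
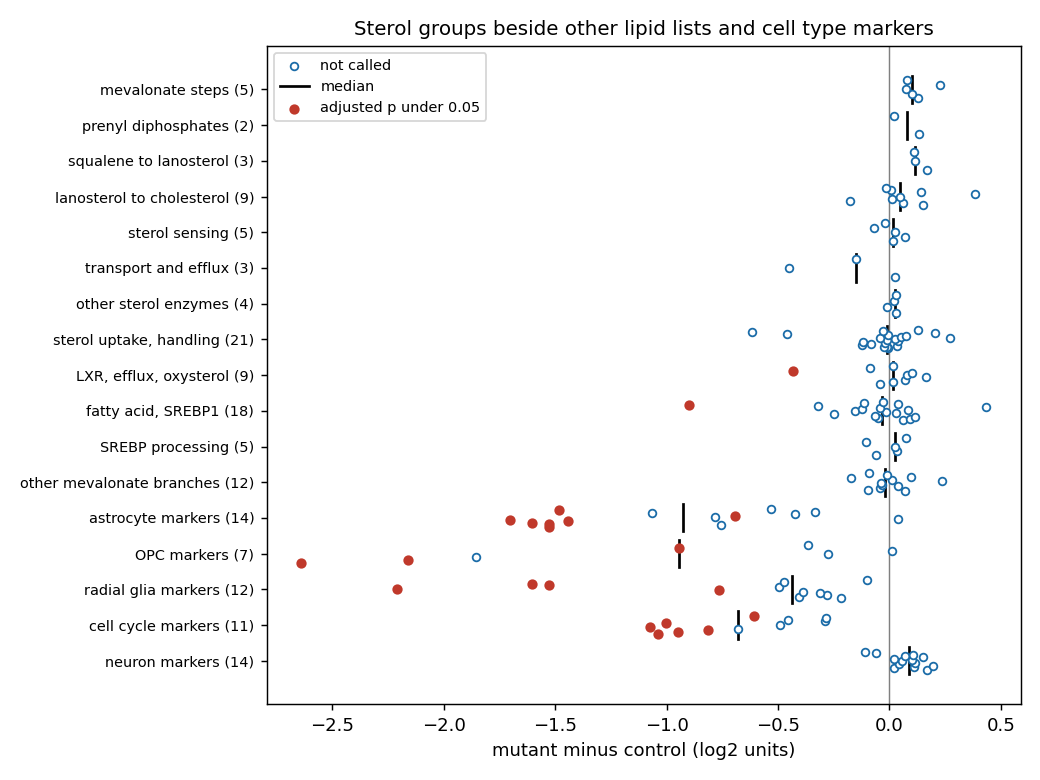
Mutant minus control difference (x axis, log2 units) of each tested gene, by list (y axis, number of genes in parentheses). Black bars are list medians, red points have an adjusted p under 0.05 and open points do not; the sterol groups cluster near 0, and the astrocyte, precursor (OPC), radial glia and cell cycle markers spread to the left.

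**Figure D4:**
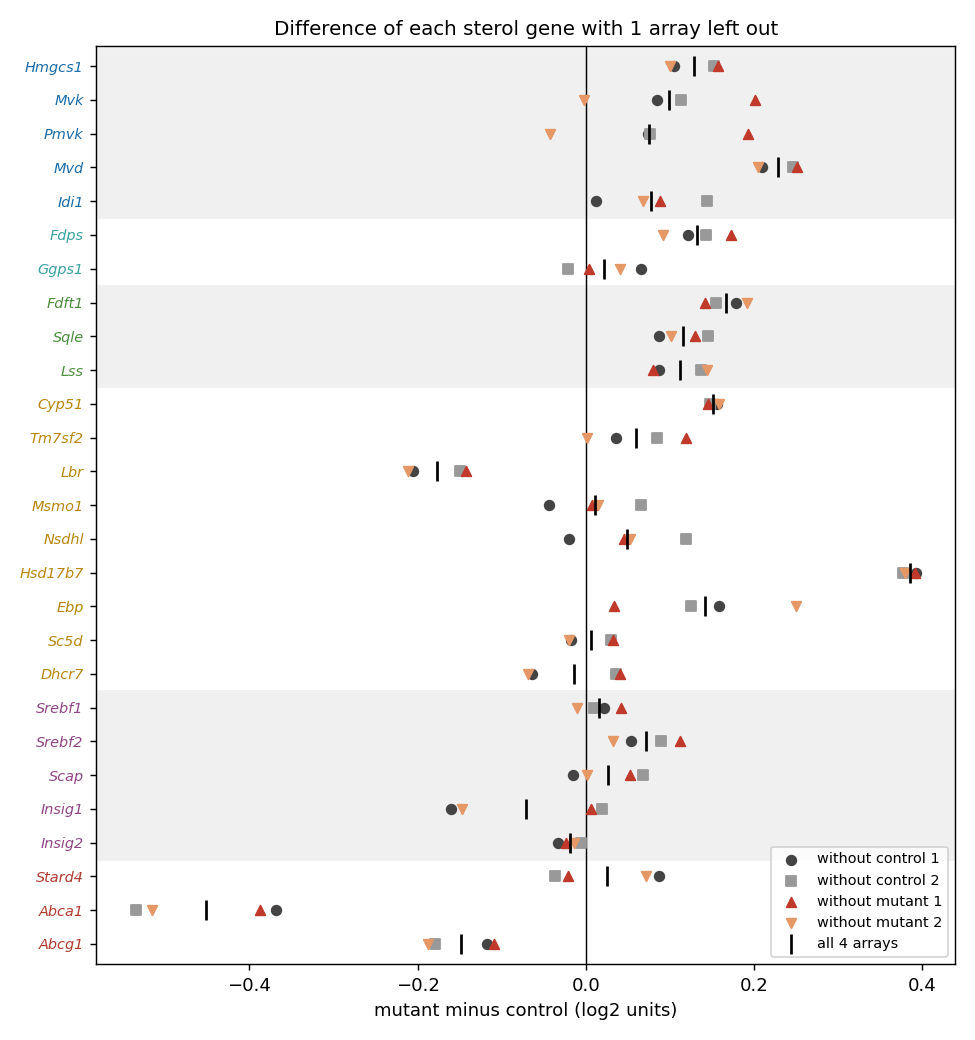
Difference of each sterol gene with 1 array left out (x axis, log2 units; symbols name the array) and with all 4 arrays (black bars), in pathway order (y axis). Hsd17b7 and Cyp51 hardly move, Mvk and Pmvk drop to about 0 without mutant 2, and Ebp drops to 0.03 without mutant 1.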

How the data were processed

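RNA of 4 cortex samples (200 ng each, single-colour whole-transcript arrays) was measured in 2 groups of 2, taken from the sample titles. The deposited values are log2 expression, which the authors made with RMA according to the submitters' processing notes. Its version, a genome build and filters were not given in the sources used here. That the scale is log2 was judged from the values' range. RMA removes changes shared by most genes and compresses those of dim genes.

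Of 35557 features, 21789 have 1 gene symbol in the platform annotation. The brightest feature per gene was kept (19938 genes), and genes with a mean under the 30th percentile (log2 6.16) were left out. The remaining 13956 genes were fitted with limma 3.58.1 in R 4.3.3 (lmFit, eBayes, no covariate, 2 residual and 3.31 prior degrees of freedom), with Benjamini-Hochberg adjustment over all of them and a call at an adjusted p under 0.05. SEs and intervals use the variance moderated by eBayes. An exact permutation of 2 against 2 arrays cannot go below p = 0.333. The script was tested on simulated data.

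The members and lists were chosen with earlier results of these data known. All members are named; of other lists, the genes called, or else those with the smallest p. The 15 other settings covered the filter, feature choice, scaling, the eBayes variant, replicate number, embryo sex and each array left out. Embryo sex was inferred from Xist and Y-linked genes on these same arrays, which gave 1 female in each group. The deviations of same-numbered arrays were weakly negatively correlated (r = -0.16 over genes). With so few arrays in a group, this value cannot decide whether the numbers pair the arrays.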

Additional observations from a re-analysis of the deposited data

How the results depend on the processing

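No sterol gene was called lower in any setting except without mutant 2 (range 0 to 1 with an array left out, Abca1), and 1, Hsd17b7, was called higher with the 50th percentile filter (adjusted p = 0.0344), with arrays centred on their medians (0.0498), with an intensity trend (0.0203) and without mutant 2 (range 0 to 1). The median difference of the members ran from 0.032 to 0.085 with an array left out. The total of 143 genes called was 15 without a filter, 0 with every feature tested, 238 with a trend, 17 with sex as a covariate and 9 to 881 with an array left out. The 2 called genes of other lipid lists became 0 without a filter, with every feature or with sex, 4 with a trend and 0 to 6 with an array left out. With the replicate number as a block 116 genes and 1 lipid gene were called, Cyp7b1 being lost, and no member's call changed. The crossed replicate block, chosen after seeing the data, is the same fit as sex and gave 17 and 0. The causes were not tested. Precision is limited by the number of arrays, and no signal over background was used.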
